A study of Sus scrofa with 4 samples.

Results

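Autophagy is the route by which a cell wraps cytoplasm in a double membrane and delivers it to the lysosome, and the transcripts examined here encode 40 listed regulators of that route and of the lysosome. The members were taken by symbol: 39 of the 40 listed symbols occur in the name column of the deposited table, once each, out of 35248 rows in all. All 39 passed the filter on low counts, which left 18481 rows. The remaining listed gene, ATG9A, has no name in the table and is described separately by its identifier.

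The embryos were porcine and parthenogenetic: oocytes were activated with an electric pulse in place of sperm, kept for 3 h in cytochalasin B, which stops cell division, and cultured for 48 h in PZM-3 medium with bovine serum albumin until the 4-cell stage. In 2 libraries the embryos had received 50 µM Bobcat339, a cytosine-based compound used to inhibit the TET dioxygenases, which oxidise 5-methylcytosine. In the other 2 libraries they had received DMSO, the usual solvent, whose amount the labels also write as 50 µM. All embryos carry maternal genomes only, no allele or transgene is named, and the labels give neither the embryos per library, nor the age of the oocyte donors, nor how long Bobcat339 was present. Nothing in the labels says that the 2 libraries of a group stem from separate cultures. The p-values below set the group difference against the scatter of these particular libraries, and that scatter may be technical.

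In autophagy, the ULK kinase complex starts the process and a class III phosphatidylinositol 3-kinase complex marks the forming membrane with the lipid PI3P. Lipid-transfer and PI3P-binding proteins then enlarge the membrane, and a pair of ubiquitin-like conjugation reactions attaches proteins of the ATG8 family (LC3 and GABARAP) to it. Cargo receptors bind both ATG8 proteins and the material to be degraded, and the closed vesicle fuses with the lysosome, whose genes are controlled in part by the transcription factors TFEB and TFE3. In mammalian embryos autophagy is switched on after fertilisation and takes part in the removal of maternal proteins. Much of its control is exerted on proteins, and RNA levels do not measure the flow of material through the pathway.

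The libraries held 13568525 to 14681221 counts, so that 3 counts in a library, the limit that a count of 0 allows, correspond to 0.204 to 0.221 CPM (counts scaled to library size); this limit covers counting error only. Oocyte and embryo transcripts dominated: BMP15, an oocyte growth factor, had a mean of 3289 FPKM (fragments scaled to gene length and library size), and the summed FPKM of the 7 embryo markers found in the table was 5771 to 6764. The summed FPKM of 11 cumulus and granulosa cell markers was 10.3 and 15.2 with Bobcat339 and 12.8 in both controls, with AMH at 0 in all libraries. That of 6 blood and immune cell markers was 3.74 and 5.72 with Bobcat339 against 4.36 and 4.98 in the controls. The part of such cells in the results below was not tested.

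None of the 39 members passed the test between Bobcat339 and control embryos, whose error is shared across genes, and over all tested rows the share that passed was 0%. With edgeR's quasi-likelihood test and Benjamini-Hochberg adjustment over all tested rows, every member had an adjusted p of 0.999. At an unadjusted p under 0.05 there was 1 member, TFEB, against 4% of all rows (1.36% higher and 2.64% lower). DESeq2, which called 0.0167% of its rows, and limma-voom each had 0 members at that level and 0 past adjustment. The log2 fold changes of the members (Bobcat339 over control, so that 1 is a doubling) ran from −1.11 to 1.17 with a median of −0.01, against −0.02 over all rows. Of the members, 18 lay above 0 and 21 below, where 47.1% of all rows lay above. In 32 members the log2 fold change was between −0.3 and 0.3, against 58.7% of all rows. In these bulk libraries fewer cells and less RNA per cell cannot be told apart.

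The 95% interval of the log2 fold change lay within a 2-fold change in either direction for 30 of the 39 members, against 41.1% of all rows. The 9 members with wider intervals were TFEB, ATG4C, ATG4D, ATG10, WIPI1, LAMP1, GABARAPL1, BNIP3 and, by a narrow margin, the lipid kinase PIK3C3 (−1.005 to 0.303). Median half-widths of the interval were 0.65 for the members and 0.81 for all rows. The plot of fold changes by role shows these intervals.

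**Figure D1:**
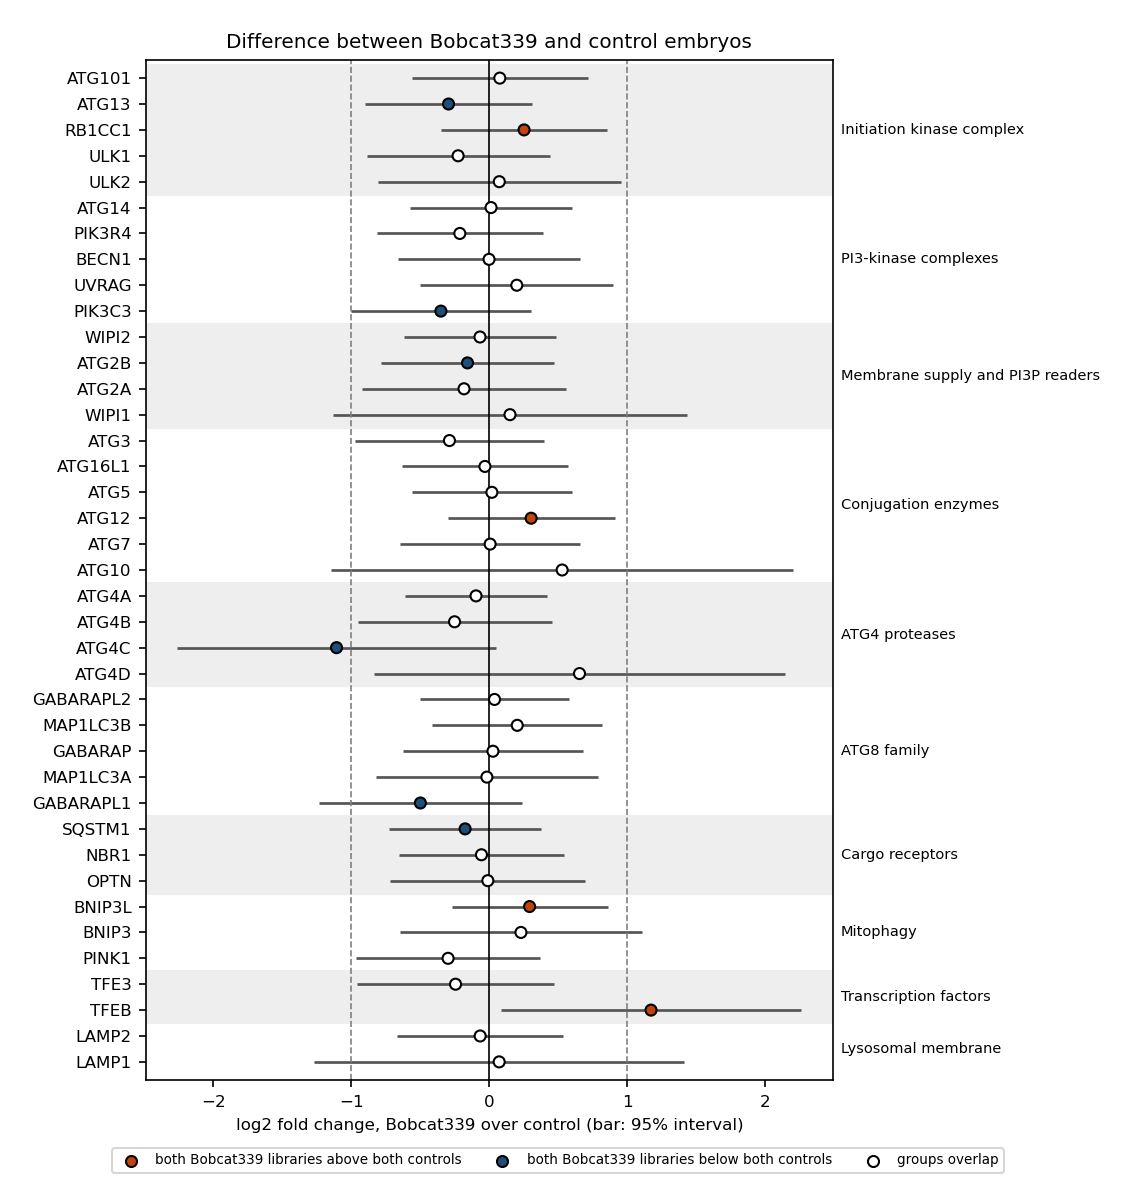
Fitted log2 fold change of Bobcat339 over control (points) with its 95% interval (bars) for the 39 members, grouped by role; dashed lines mark a 2-fold change, and the colour tells whether both Bobcat339 libraries lay above or below both controls in TMM-normalised CPM. Only the interval of TFEB (0.08 to 2.26) does not cross 0, and it did not pass adjustment.

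Levels between genes were compared with the deposited FPKM, which are normalised by gene length and library total. The length that these FPKM imply matched the gene length deposited beside them in only 9 members. For ATG4A it was 4905 bases against 17287, and for SQSTM1 2371 against 6259, while GABARAPL2 had 1168 in both. Ranks and ratios between genes depend on the length used, and those with the other length were not computed. The members spanned a 1445-fold range of mean FPKM, with a median of 9.59 against 3.42 over all tested rows. GABARAPL2, an ATG8 protein, stood alone at the top with 417 and 379 FPKM in the Bobcat339 libraries and 444 and 316 in the controls, a level above that of 99.5% of tested rows. The protease ATG4A (mean 107 FPKM), MAP1LC3B (91.1), the cargo receptor SQSTM1 (66.9) and the conjugating enzyme ATG3 (56.0) came next, and neighbours in this stretch overlapped over the 4 libraries. A further 6 members lay between 20 and 40 FPKM: GABARAP, WIPI2, ATG4B, BNIP3L, ATG101 and ATG14. At the bottom, 7 members had means below 2 FPKM: TFEB (1.08), ATG4C (1.04), ULK2 (0.93), LAMP1 (0.53), ATG4D (0.43), ATG10 (0.34) and WIPI1 (0.27). The remaining 21 members lay between 3.00 FPKM (OPTN) and 17.2 FPKM (ATG16L1), and in that stretch every member overlapped the next except OPTN, whose highest library lay below the lowest of PIK3C3.

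**Figure D2:**
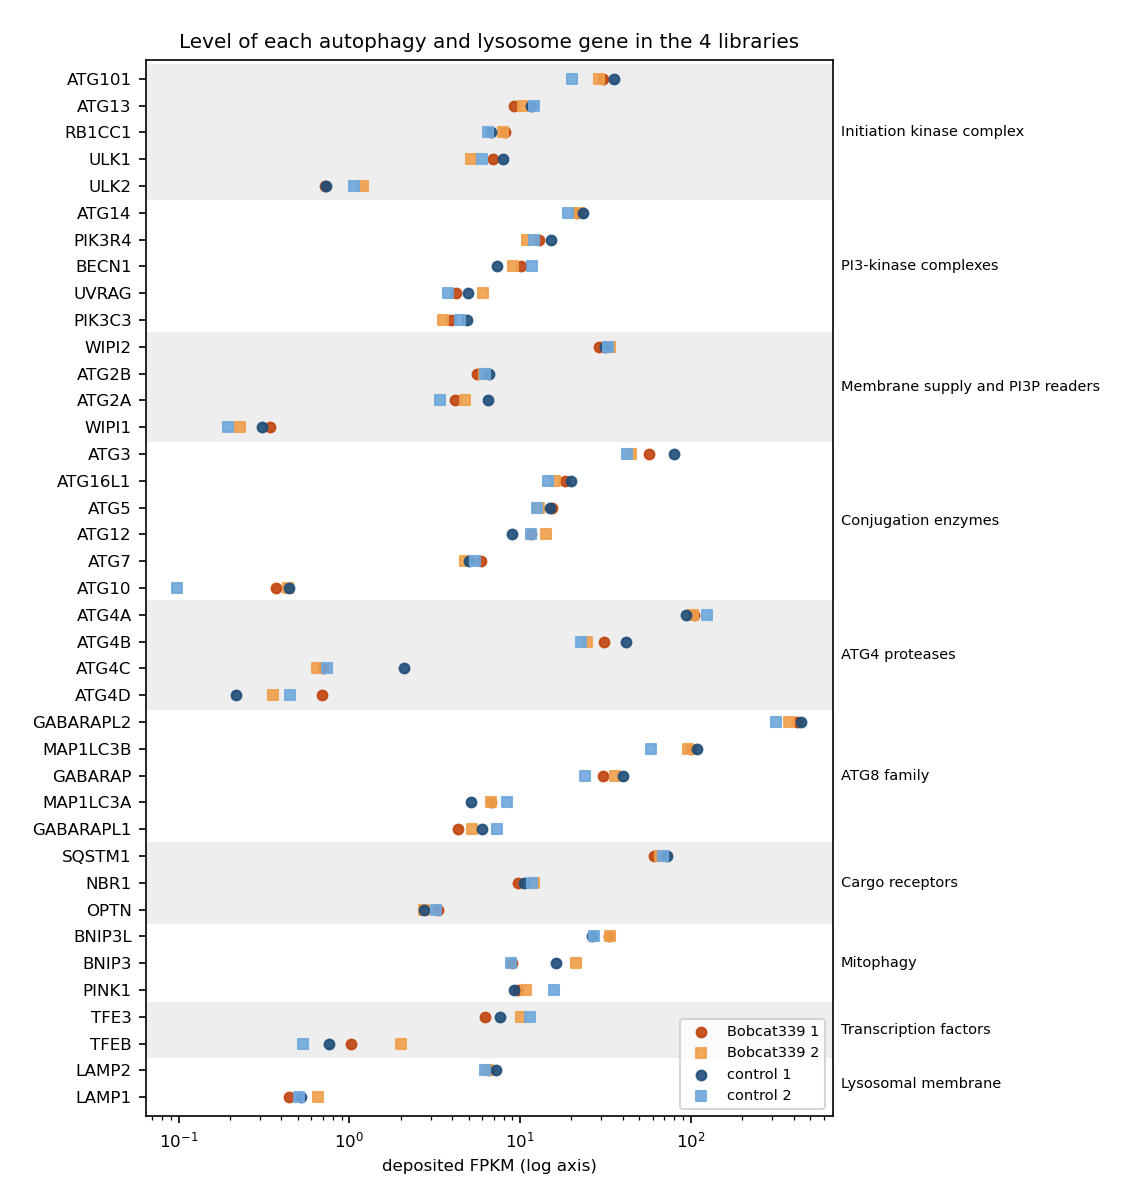
Deposited FPKM (log axis) of the 39 members in the 4 libraries, grouped by role and ordered by mean level within a role. The 4 points of a gene mostly lie close together compared with the range from WIPI1 (mean 0.27) to GABARAPL2 (mean 389).

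In the initiation kinase complex ATG101, which stabilises the subunit ATG13, was the most abundant per length, at 30.8 and 29.2 FPKM with Bobcat339 and 35.5 and 20.1 in the controls. The controls were the highest and the lowest of the 4 libraries, and its log2 fold change was 0.08 (95% interval −0.56 to 0.71). The kinase ULK1 had a mean of 6.51 FPKM and its paralog ULK2 0.93 FPKM, so that ULK1 exceeded ULK2 by 9.58-fold and 4.34-fold in the Bobcat339 libraries and by 10.9-fold and 5.59-fold in the controls. This ratio was high in library 1 and low in library 2 of both groups. Their log2 fold changes were −0.23 and 0.07.

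ATG13, the subunit that links the kinase to its scaffold, had 56.5 and 63.1 TMM-normalised CPM (the scale of the tests, corrected for library composition) with Bobcat339 and 73.7 and 73.1 in the controls. Both treated libraries lay below both controls, and the control libraries nearly coincided. Its log2 fold change was −0.30 (SE 0.29; edgeR adjusted p = 0.999). RB1CC1 (FIP200), the scaffold of the complex, had 74.3 and 71.3 CPM with Bobcat339 and 63.6 and 58.7 CPM in the controls. Here both treated libraries lay above both controls, at a fitted log2 fold change of 0.25 (SE 0.29; edgeR adjusted p = 0.999). The subunits of this complex thus had fitted values on both sides of 0, 3 above and 2 below.

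Among the subunits of the PI3-kinase complexes, ATG14, which directs the kinase to autophagy, was the most abundant, with 21.5 and 22.2 FPKM with Bobcat339 and 23.4 and 19.1 FPKM in the controls. The groups overlapped and the log2 fold change was 0.01 (95% interval −0.58 to 0.60). UVRAG, which replaces ATG14 in the complex that acts on endosomes, had a mean of 4.77 FPKM and a log2 fold change of 0.20. The shared regulator BECN1 (9.59 FPKM) was at −0.0022 and the regulatory kinase-like subunit PIK3R4 (12.7 FPKM) at −0.21.

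PIK3C3, the catalytic subunit, had 29.6 and 26.1 CPM with Bobcat339 and 37.8 and 33.1 CPM in the controls. Both treated libraries lay below both controls, and the log2 fold change was −0.35 (SE 0.31; edgeR adjusted p = 0.999). BECN1 showed the opposite order within the control pair, 43.1 CPM in control 1 and 66.4 in control 2, with the Bobcat339 libraries between them at 58.0 and 51.4.

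Of the genes for membrane supply and PI3P reading, WIPI2, the PI3P reader that recruits the conjugation machinery, was the most abundant. It had 28.8 and 33.6 FPKM with Bobcat339 and 31.5 and 32.8 FPKM in the controls, with a fitted log2 fold change of −0.07 (95% interval −0.62 to 0.48). Its paralog WIPI1 had 14 to 26 counts per library, and WIPI2 exceeded it by 84.1-fold to 167.5-fold per length. The lipid-transfer proteins ATG2A and ATG2B had similar levels, the ratio of ATG2B to ATG2A being 1.35 and 1.29 with Bobcat339 and 1.014 and 1.855 in the controls. ATG2A differed 2.005-fold between the controls (46.5 and 23.2 CPM) and had a fitted log2 fold change of −0.18. ATG2B had 43.5 and 46.9 CPM with Bobcat339 and 52.7 and 48.1 CPM in the controls, so that the groups did not overlap, with a log2 fold change of −0.16.

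ATG9A, the scramblase of the same step, was read from the row whose identifier (ENSSSCG00000016211, chromosome 15: 121254367 to 121265569) an Ensembl name table pairs with that symbol; coordinates are printed as deposited, from a table whose build is uncertain. It had 130 and 123 counts with Bobcat339 and 184 and 115 in the controls. The groups overlapped, and the log2 fold change was −0.27 (95% interval −1.04 to 0.51; edgeR adjusted p = 0.999).

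Among the conjugation enzymes ATG3, the E2-like enzyme that attaches ATG8 proteins to lipid, was the most abundant, with 57.1 and 44.9 FPKM with Bobcat339 and 79.9 and 42.1 FPKM in the controls. The controls again formed both ends of the range, and the log2 fold change was −0.29 (95% interval −0.98 to 0.40). The ubiquitin-like protein ATG12 had 85.7 and 103 CPM with Bobcat339 and 68.0 and 85.0 CPM in the controls. Bobcat339 1 and control 2 were almost equal, so that the groups stood apart by a margin that vanished on the FPKM scale, where both were at 11.6. The log2 fold change of ATG12 was 0.30 (SE 0.29; edgeR adjusted p = 0.999).

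ATG12 is joined to ATG5, and the product binds ATG16L1; the log2 fold changes of ATG5 and ATG16L1 were 0.02 and −0.03. The E1-like enzyme ATG7, which activates both ATG12 and the ATG8 proteins, was at 0.01 (95% interval −0.64 to 0.66). ATG10, the E2-like enzyme for ATG12, was among the least abundant members with 12 and 13 counts with Bobcat339 and 14 and 3 in the controls. Its interval was wide (−1.15 to 2.20), where the median half-width over the members was 0.65. Members with more counts did not pass either. Over the whole role 4 of 6 fitted values were above 0.

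The ATG4 proteases cut ATG8 proteins before conjugation and release them from membrane afterwards, and their 4 genes differed widely in level. ATG4A (chromosome X: 88543972 to 88635465) had 105 and 103 FPKM with Bobcat339 and 94.3 and 124 FPKM in the controls. It made up 76.4% and 80.1% of the summed ATG4 FPKM with Bobcat339 and 68.0% and 83.9% in the controls, a share whose spread within the control pair covered both treated libraries. ATG4B followed with a mean of 30.1 FPKM, while ATG4C and ATG4D were at 1.04 and 0.43 FPKM. The log2 fold changes were −0.10 for ATG4A (95% interval −0.61 to 0.42) and −0.25 for ATG4B (−0.95 to 0.45).

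ATG4C (chromosome 6: 149608220 to 149691946) had the lowest log2 fold change of all members. Its counts were 27 and 23 with Bobcat339 and 79 and 27 in the controls, or 1.84 and 1.68 CPM against 5.66 and 1.93 CPM. Control 1 stood apart, and control 2 was close to the treated libraries. The log2 fold change was −1.11 (SE 0.55; 95% interval −2.26 to 0.05; edgeR adjusted p = 0.999), and it was −0.14 without control 1. ATG4D had 23 and 11 counts with Bobcat339 and 7 and 14 in the controls, so the groups overlapped. Its log2 fold change was 0.65 (SE 0.71; 95% interval −0.84 to 2.14; edgeR adjusted p = 0.999).

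The ATG8 family held 49.0% of the summed mean FPKM of the 39 members. GABARAPL2 (chromosome 6: 12122057 to 12132991) made up 74.5% and 72.4% of the family's FPKM with Bobcat339 and 73.5% and 76.3% in the controls, and MAP1LC3B 18.0% and 18.4% against 18.0% and 14.1%. GABARAP (mean 32.7 FPKM), MAP1LC3A (6.76 FPKM) and GABARAPL1 (5.71 FPKM) were the minor members. The family's summed FPKM was 560 and 523 with Bobcat339 and 604 and 414 in the controls, so that the treated libraries lay between the controls. The log2 fold change was 0.04 for GABARAPL2 (95% interval −0.50 to 0.58), 0.03 for GABARAP (−0.63 to 0.68) and −0.02 for MAP1LC3A (−0.82 to 0.78), the last with a sign that depended on the setting.

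MAP1LC3B (chromosome 6: 1917493 to 1941079), the most abundant LC3 gene and the usual marker of autophagosomes at the protein level, had 5923 and 5232 counts with Bobcat339 and 6278 and 3244 in the controls. In CPM these were 403 and 381 against 450 and 232, so that control 2 alone was low. Its log2 fold change was 0.20 (95% interval −0.41 to 0.82). MAP1LC3A went the other way within the controls, 5.73 CPM in control 1 and 8.95 in control 2, and the per-length ratio of MAP1LC3B to MAP1LC3A was 21.1 and 6.99 in the controls against 14.9 and 14.2 with Bobcat339. GABARAPL1, a relative of GABARAP, had 8.31 and 9.98 CPM with Bobcat339 and 11.89 and 13.96 CPM in the controls. Both treated libraries lay below both controls. The fitted log2 difference was −0.50 (SE 0.35; edgeR adjusted p = 0.999).

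None of the 3 cargo receptors passed the test. SQSTM1 (p62), which binds ubiquitin and ATG8 proteins, had 60.9 and 66.1 FPKM with Bobcat339 and 72.3 and 68.5 FPKM in the controls. Both treated libraries lay below both controls, by a small margin. Its log2 fold change was −0.18 (95% interval −0.73 to 0.38). NBR1, a receptor of like build, had a mean of 11.0 FPKM and a log2 fold change of −0.06, and OPTN, a receptor for damaged mitochondria and bacteria, 3.00 FPKM and −0.01. Both lay close to the median of all rows (−0.02), and without Bobcat339 1 NBR1 was at 0.07 and without Bobcat339 2 OPTN at 0.17.

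Of the mitophagy genes, BNIP3L (NIX; chromosome 14: 10318696 to 10345754), an outer-membrane receptor that tags mitochondria for autophagy, had the tightest replicates. It stood at 133 and 132 CPM with Bobcat339 and 108 CPM in both controls. The groups did not overlap, and the log2 fold change was 0.29 (95% interval −0.27 to 0.86; edgeR adjusted p = 0.999), a test whose error draws on the spread of all genes and not on these 4 values alone. Its paralog BNIP3 had 11.8 and 27.5 CPM with Bobcat339 and 21.998 and 11.5 in the controls, with a high and a low library in each group, and a log2 fold change of 0.23 (95% interval −0.65 to 1.10). PINK1, the kinase that accumulates on damaged mitochondria, had 48.8 and 53.7 CPM with Bobcat339 and 47.8 and 78.2 CPM in the controls. Control 2 alone was high, and the log2 fold change was −0.30 (SE 0.32; edgeR adjusted p = 0.999).

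The transcription factors of lysosomal genes differed in level and in fitted direction. TFEB (chromosome 7: 36870242 to 36921057) had 38 and 69 counts with Bobcat339 and 28 and 19 in the controls, or 2.59 and 5.03 CPM against 2.01 and 1.36 CPM. Both treated libraries lay above both controls, and Bobcat339 2 stood well above the rest. The log2 fold change was 1.17 (SE 0.52; 95% interval 0.08 to 2.26), with an unadjusted p of 0.0365 by edgeR across all genes and an adjusted p of 0.999. Without Bobcat339 2 it was 0.67. Summed FPKM of the embryo, cumulus and blood markers were each highest in Bobcat339 2 as well. Of the cumulus markers, VIM was highest there (8.43 FPKM), while TNFAIP6 (0.15) and STAR (0.76) were lowest there. Gene by gene the order differed. The median log2 deviation of the tested markers from their mean over the libraries was highest in control 2 for each list. It was 0.28 against 0.16 in Bobcat339 2 for cumulus markers, 0.32 against 0.19 for blood and 0.065 against 0.061 for embryo markers. The part of these cells in the TFEB values was not tested.

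TFE3, the relative of TFEB on the X chromosome, had 6.24 and 10.1 FPKM with Bobcat339 and 7.62 and 11.4 FPKM in the controls. It was low in library 1 and high in library 2 of both groups, and its log2 fold change was −0.24 (95% interval −0.96 to 0.47). TFE3 exceeded TFEB in every library, by 6.15-fold and 5.05-fold with Bobcat339 and by 9.99-fold and 21.2-fold in the controls. This ratio did not overlap between the groups, but it draws on the same low TFEB counts and is no second observation. The other paralog ratios and family shares computed here overlapped.

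Of the lysosomal membrane proteins, LAMP2, needed for fusion with autophagosomes, had 6.56 and 6.51 FPKM with Bobcat339 and 7.22 and 6.21 FPKM in the controls. The treated libraries lay between the controls, with a log2 fold change of −0.07 (95% interval −0.67 to 0.53). LAMP1, an abundant lysosomal protein in most tissues, had only 14 and 19 counts with Bobcat339 and 16 and 15 in the controls. LAMP2 exceeded it by 14.8-fold and 9.97-fold per length with Bobcat339 and by 13.9-fold and 12.3-fold in the controls. The interval of LAMP1 was −1.27 to 1.41.

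**Figure D3:**
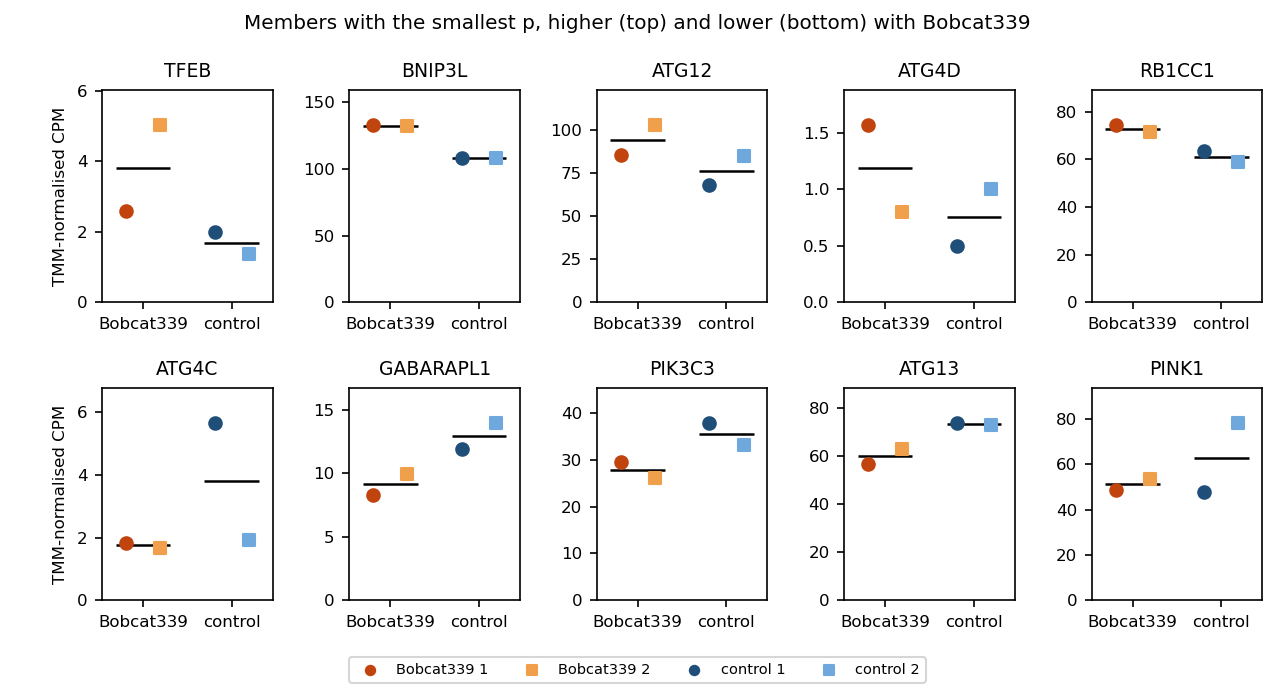
TMM-normalised CPM in each library (points; axis from 0) and group means (lines, n = 2 each) of the 5 members with the smallest p in each direction. In ATG4D and PINK1 the groups overlap; in TFEB and ATG4C a single library stands apart (Bobcat339 2 and control 1), while BNIP3L and ATG13 have close replicates.

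Counted over all members, both Bobcat339 libraries lay above both controls in 4 (TFEB, BNIP3L, ATG12 and RB1CC1) and below both in 6 (ATG4C, GABARAPL1, PIK3C3, ATG13, SQSTM1 and ATG2B). These 10 of 39 stand beside 29.3% of all rows without overlap, 13.3% higher and 16% lower. The 10 members are spread over 9 of the 10 roles. Only the initiation complex held members of both directions, and only the lysosomal membrane proteins held none. On the FPKM scale ATG12 was not among them, which left 9.

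The control libraries differed from each other in many members. In 30 of 39 members the 2 controls were further apart on the log2 scale than the group means, against 71.7% of all rows. The median absolute log2 difference between the controls was 0.46 over the members and 0.52 over all rows, and between the Bobcat339 libraries it was 0.21 and 0.28. Control 1 exceeded control 2 by over 1.5-fold in 10 members (24.5% of all rows): ATG10, ATG4C, ATG2A, ATG3, MAP1LC3B, ATG4B, BNIP3, ATG101, GABARAP and WIPI1. The reverse held in 4 members (19.8% of all rows): ATG4D, PINK1, MAP1LC3A and BECN1. These 14 stand beside 44.3% of all rows. Control 1 was the highest of the 4 libraries in 19 members (32.7% of all rows) and control 2 the lowest in 18 (28.4%), while control 2 was the highest in 6 (29.9%) and control 1 the lowest in 6 (31%). Between the Bobcat339 libraries 6 members differed by over 1.5-fold (23.7% of all rows): TFEB, BNIP3, ATG4D, TFE3, ULK2 and WIPI1.

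The sign of many fitted values depended on which control was used. In 24 members the log2 fold change had opposite signs against control 1 alone and control 2 alone. The share of all rows that did so was not computed. The median absolute log2 difference between the controls was no wider in the members (0.46) than over all rows (0.52). With its sign kept, the median log2 ratio of control 1 to control 2 was 0.19 in the members and −0.0076 over all rows. The median log2 fold change of the members was 0.12 without control 1 and −0.13 without control 2, against −0.01 and 0.02 over all rows. Such fits take the spread from the Bobcat339 pair and assume it for the lone control. Without control 1, edgeR called 2.92% of rows (2.03% as higher) and 1 of 39 members, MAP1LC3B, as higher at 0.76 on the log2 scale (edgeR adjusted p = 0.0028); it was −0.17 without control 2. Without control 2, 2.47% of rows (0.74% as higher) and 1 of 39 members passed, ATG4C, at −1.65 (edgeR adjusted p = 0.0404). With either Bobcat339 library left out 0% of rows and none of the members passed. In 12 members the sign held with any 1 of the 4 libraries left out. Values were higher in TFEB, BNIP3L, ATG12, RB1CC1 and ATG4D. They were lower in ATG4C, GABARAPL1, PIK3C3, ATG13, SQSTM1, ATG2B and PIK3R4. All 10 members whose groups do not overlap are among them. Without overlap the sign holds nearly by construction, so this count is no separate evidence for a difference. The share of all rows was not computed for comparison with these 12 members. The size moved even there: ATG4D ran from 0.085 without Bobcat339 1 to 1.27 without control 2, ATG12 from 0.15 without control 1 to 0.50 without control 2, and PIK3R4 from −0.36 without control 2 to −0.0043 without control 1. BNIP3L (0.28 to 0.34), RB1CC1 (0.22 to 0.33) and ATG13 (−0.33 to −0.22) moved little.

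**Figure D4:**
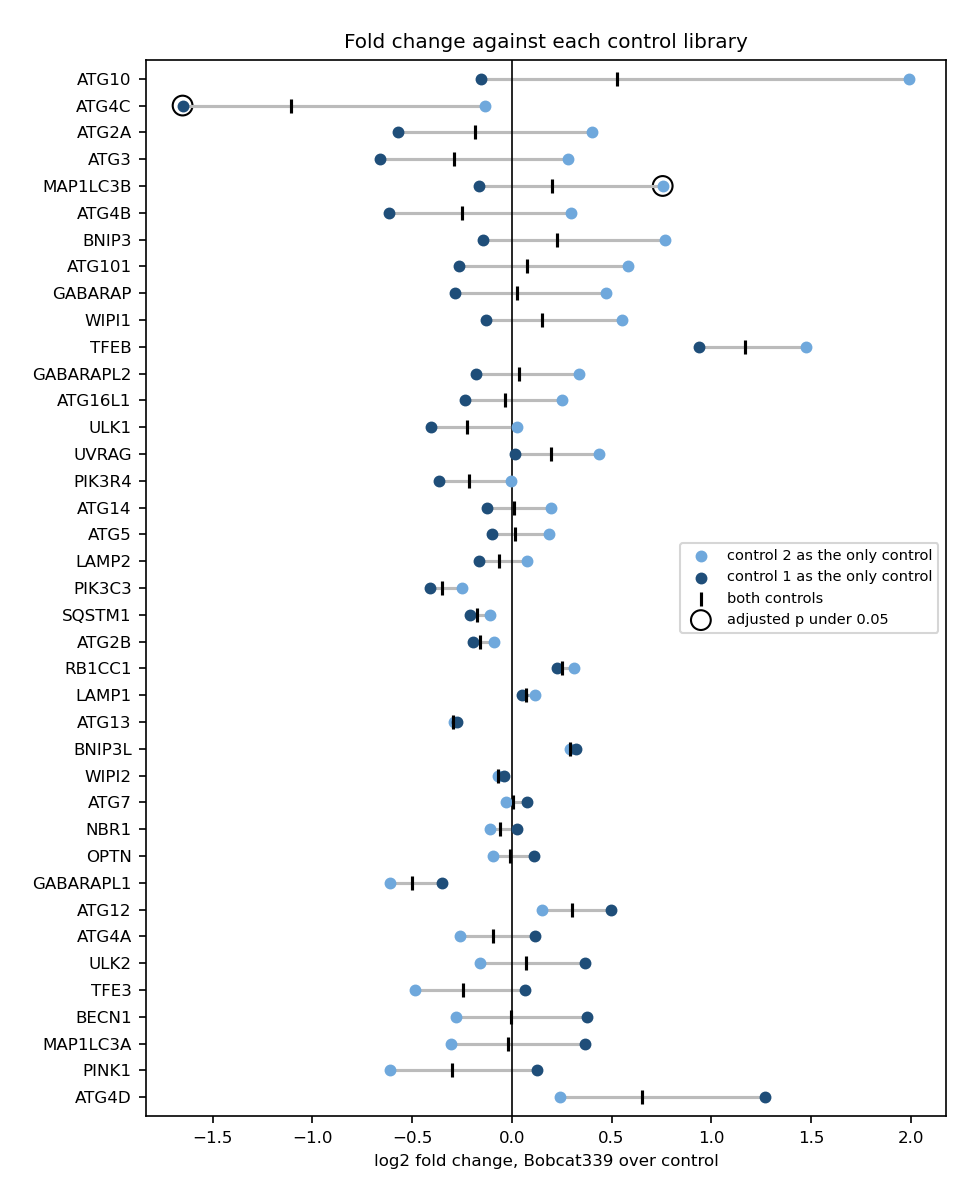
Log2 fold change of Bobcat339 over control with control 1 or control 2 as the only control (points) and with both (ticks), for the 39 members ordered by the ratio of control 1 to control 2; circles mark an edgeR adjusted p under 0.05. MAP1LC3B and ATG4C each pass with 1 of the controls left out and are at −0.17 and −0.14 with the other left out, while BNIP3L, RB1CC1 and ATG13 hardly move.

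Other genes of the pathway were read from 5 lists that share no gene with the members, and 0 passed in any of them by edgeR, DESeq2 or limma-voom, with 3 genes at an unadjusted p under 0.05 by each tool, of 142 tested by edgeR and limma-voom and 150 by DESeq2, against 4% of all rows by edgeR. Of 36 tested lysosomal hydrolases and cofactors 21 lay above 0 and 15 below, around a median of 0.09 on the log2 scale. The alpha-galactosidase GLA was at 125 FPKM, with a log2 fold change of 0.16. This list also followed the controls: control 2 was the lowest library in 23 of 36, and the median was 0.34 without control 1 and −0.14 without control 2. Without control 1, where 2.92% of all rows passed, GLA, the beta-galactosidase GLB1 and the saposin precursor PSAP passed as higher, at 0.52, 1.21 and 1.46 (edgeR adjusted p = 0.0393, 0.012 and 0.000138). Without control 2 the same genes were at −0.10, 0.05 and 0.26 and did not pass. The peptidase DPP7 passed as lower without control 2, where 2.47% of all rows passed, at −1.34 (edgeR adjusted p = 0.0327), and was at 0.18 without control 1. GLB1, PSAP and DPP7 were named after their values were seen.

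The 19 tested subunits of the V-ATPase, the proton pump that acidifies the lysosome, had 11 values above 0 around a median of 0.04. That median was 0.20 without control 1 and −0.08 without control 2, and control 2 was the lowest library in 12 of 19. Its membrane-sector subunits ATP6V0C (99.9 FPKM) and ATP6V0B (88.7 FPKM) were at −0.03 and −0.30. The mTORC1 and AMPK genes, which sense nutrients and energy and control the ULK complex, had 25 of 36 tested members below 0 and a median of −0.17. RRAGA, a GTPase that brings mTORC1 to the lysosome, was at 461 FPKM (log2 fold change 0.09), and CASTOR1, an arginine sensor, at 135 FPKM (−0.21). In this list both Bobcat339 libraries lay below both controls in 11 of 36 genes and above both in 5, beside 16% and 13.3% of all rows. The counts below and above were 4 and 7 of 36 hydrolases and cofactors, and 1 and 2 of 19 V-ATPase subunits. They were 3 and 0 of 24 genes of fusion and the lysosomal membrane, and 7 and 3 of 27 other autophagy genes. The median of the mTORC1 and AMPK list was 0.0024 without control 1 and −0.22 without control 2. Control 1 was the highest library in 17 of its 36 genes.

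Genes of vesicle fusion and of the lysosomal membrane had 16 of 24 tested members below 0 and a median of −0.16. The SNARE protein VAMP7 (64.7 FPKM) was at 0.22 and RAB7A, the GTPase of late endosomes (40.5 FPKM), at −0.20. The median of this list was 0.04 without control 1 and −0.39 without control 2. Other autophagy genes had 18 of 27 below 0 and a median of −0.07, which was −0.0054 without control 1 and −0.09 without control 2. The most abundant were the cargo receptor TAX1BP1, with 352 and 296 FPKM with Bobcat339 and 246 and 289 FPKM in the controls (log2 fold change 0.25), and the segregase VCP at 142 FPKM (0.03). TAX1BP1 exceeded SQSTM1, the most abundant cargo receptor among the members, in every library.

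Several values may be affected by reads of a neighbouring gene. In the deposited coordinates, taken from gene start to gene end with introns included, 21 of the 39 members overlap another row of the table. For 18 of them such a row lies on the opposite strand, and Smart-seq2 does not mark strand. For 6 members the overlapping row held more counts than the member: ATG4D with KRI1 (55 against 1131 counts over the 4 libraries), ATG12 with AP3S1 (4808 and 6355), ATG13 with ARHGAP1 (3746 and 19666), MAP1LC3A with PIGU (411 and 1726), PINK1 with DDOST (3213 and 5959) and NBR1 with BRCA1 (4500 and 6895). The share of reads on the shared bases was not tested. Paralogs such as GABARAP, GABARAPL1 and GABARAPL2, and any processed copies, may share reads as well.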

How the data were processed

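RNA of 4-cell embryos was sequenced after Smart-seq2 library preparation, per the labels' protocols, in 2 libraries with Bobcat339 and 2 controls. The submitters' processing notes list Trimmomatic, HISAT2 2.0.5, HTSeq, DESeq2 1.16.1 and the build Sscrofa10.2. The deposited coordinates of all 39 members overlap the gene of the same symbol in RefSeq's Sscrofa11.1, so the build of the printed coordinates is uncertain. The authors deposited 1 table with raw read counts per gene and FPKM; each FPKM equals the count divided by the library total and a length fixed per gene. Whether HTSeq counted by strand is not stated in these sources.

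The deposited counts were tested in R 4.3.3 with edgeR 4.0.16 (filterByExpr with a minimum count of 10, TMM scaling, quasi-likelihood test, Benjamini-Hochberg adjustment, threshold 0.05), which left 18481 rows and removed 16767. Intervals are 95% intervals of that model. FPKM served for levels between genes. The floor was set at 3 counts per library, which totals of 13568525 to 14681221 counts turn into 0.204 to 0.221 CPM. Genes with few counts have wide intervals. The procedure was tested on counts simulated with its own fitted dispersion, in which the known changes were larger than the fitted change of any member. Smaller changes and an outlying library were not simulated.

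The members and lists were chosen with earlier results of these data known. Per-library values were given for the 5 members with the smallest p in each direction, the most abundant member of each role, and their paralogs; each other list is shown by its 2 most abundant genes, of which 1 is not reported here. Alternatives were DESeq2 1.42.0, limma 3.58.1 (voom, and log2(FPKM + 1)), other scalings and filters, an adjusted p of 0.01, the replicate number as a block, and each library left out.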

Additional observations from a re-analysis of the deposited data

How the results depend on the processing

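With all 4 libraries, 0 members passed under any of the 8 other settings, and 181 of 188 values of the 24 fully described members kept their sign. The 7 that did not were all of MAP1LC3A, whose log2 fold change was 0.0053 by DESeq2, 0.017 by limma-voom, 0.0026 with size factors in edgeR, 0.00082 without scaling, 0.0087 without a filter, 0.013 with the replicate block and 0.032 by limma on log2(FPKM + 1). Over all genes DESeq2 called 5 and the replicate block 44, against 0; the cause was not tested. The labels do not say that the replicate numbers pair libraries, and deviations of same-numbered libraries correlated at 0.188 over all tested rows and 0.0469 over the members. The filter of 5 CPM left 33 members.

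Leaving out 1 library gave 0 to 586 genes and 0 to 1 members past the threshold. The log2 fold change then ran from −1.65 to −0.14 for ATG4C, −0.61 to 0.13 for PINK1, −0.26 to 0.12 for ATG4A, −0.18 to 0.34 for GABARAPL2, −0.66 to 0.28 for ATG3, −0.27 to 0.58 for ATG101, −0.17 to 0.077 for LAMP2, −0.13 to 0.024 for WIPI2 and −0.12 to 0.20 for ATG14. It ran from −0.58 to 0.065 for TFE3, −0.30 to 0.37 for MAP1LC3A, −0.17 to 0.76 for MAP1LC3B, −0.29 to 0.47 for GABARAP, −0.61 to 0.30 for ATG4B and −0.17 to 0.31 for LAMP1. With 2 libraries a group, the error of the test rests on the spread between libraries, shared in part across genes. Members with few counts, such as LAMP1 (14 to 19), had wide intervals. What limited the comparison for each member was not tested.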

Other observations

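In the 5 other lists of the pathway 3 of 142 genes were at an unadjusted p under 0.05 by edgeR, against 4% of all rows. All 3 had values below 0, the direction of 2.64% of all rows against 1.36% above, and none passed adjustment (edgeR adjusted p = 0.999 each). They were chosen after their values were seen. NPRL2, a subunit of the GATOR1 complex that restrains mTORC1 when amino acids are scarce, had 3.89 and 2.88 FPKM with Bobcat339 and 6.01 and 6.71 FPKM in the controls. Both treated libraries lay below both controls, and its log2 fold change was −0.93 (95% interval −1.67 to −0.20). TBK1, a kinase that phosphorylates cargo receptors, had 2.88 and 2.42 FPKM with Bobcat339 and 5.90 and 3.52 FPKM in the controls, and a log2 fold change of −0.86. VPS11, a core subunit of the tethering complexes of endosomes and lysosomes, had 3.05 and 2.29 FPKM with Bobcat339 and 6.55 and 2.99 FPKM in the controls, so that the groups overlapped (log2 fold change −0.87). In TBK1 and VPS11 control 1 was the highest library. Without control 2 both passed as lower, TBK1 at −1.17 (edgeR adjusted p = 0.0249) and VPS11 at −1.31 (edgeR adjusted p = 0.0141). Without control 1 neither passed, at −0.41 and −0.15. NPRL2 was at −0.98 without control 1 and −0.84 without control 2 and passed in neither.

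Without control 2, 5 of 142 genes of these lists passed, all lower, beside 2.47% of all rows. Besides TBK1, VPS11 and DPP7 they were the Ragulator subunit LAMTOR2 (log2 fold change −1.16) and the SNARE protein YKT6 (−1.26), which were at 0.24 and −0.009 without control 1. Without control 1, 5 of 142 passed, all higher, beside 2.92% of all rows. Besides GLA, GLB1 and PSAP they were the V-ATPase subunit ATP6V1A (0.81) and the membrane protein VMP1 (0.75), which were at 0.04 and −0.44 without control 2.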
